A study of Rattus norvegicus with 15 samples.

Results

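The integrin and laminin genes of rat islet cells were followed in poly(A) RNA and in RNA bound to Ago2 after transfection with a miR-17-5p mimic or a control. Members were chosen by symbol: every gene named as an integrin alpha or beta chain or as a laminin alpha, beta or gamma chain, with Nid1, Nid2 and Hspg2 added. Of 17055 genes in the tables, 32 met this rule. They were 12 integrin alpha chains, 8 integrin beta chains, 7 laminin chains, the nidogen Nid2, and 4 genes (Itgb1bp1, Itgb1bp2, Itgb3bp and Itgbl1) that share the symbol pattern but encode no receptor subunit. Nid1, Hspg2, Itgav, Itga2, Itga3, Itga9, Itga2b, Itgax, Lama2, Lama3, Lama4 and Lamb1 are not analysed here.

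All cells came from islets of Sprague-Dawley rats at 10 days of age, before weaning, and were dispersed before transfection. The miR-17-5p groups received a synthetic RNA that adds this microRNA, and the control groups a control transfection. Poly(A) RNA gave the mRNA libraries, and RNA recovered with an antibody against Ago2 gave the RISC libraries. Ago2 is the Argonaute protein at the core of the silencing complex (RISC), where it holds a microRNA and the transcript paired with it. There were 5 miR-17-5p mRNA libraries (numbers 1, 2, 4, 5 and 6), 3 control mRNA libraries (1, 2 and 3), 4 miR-17-5p RISC libraries (2, 4, 5 and 6) and 3 control RISC libraries (1, 2 and 3). The labels name them biological replicates but number them differently in titles and descriptions. A p-value here therefore reflects no more than the spread of these libraries, and that spread may be technical. The cells were a mixture of islet cell types, and fewer cells of a type cannot be told apart from less RNA per cell.

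Integrins are cell-surface receptors made of an alpha and a beta chain, and the alpha chain largely sets which matrix protein is bound. Laminins are trimers of an alpha, a beta and a gamma chain that form the sheet of the basement membrane, where nidogens tie them to the collagen IV network. In islets the basement membrane is laid down around blood vessels, and endocrine cells touch its laminins through integrins that contain the Itgb1 chain. The matrix-producing stellate cells and fibroblasts of the pancreas carry their own set, with collagen and fibronectin receptors.

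MicroRNAs pair with target transcripts mainly through the seed, bases 2 to 8 from the 5′ end. The mature sequences below, from RefSeq (GRCr8), are shown because they share their seed with the transfected microRNA, and the capitals mark that seed. In this table miR-17-5p is encoded with the same letters by Mir17 at chr15:98587861-98587883 on the plus strand and by Mir106a at chrX:137343615-137343637 on the minus strand.
rno-miR-17-5p: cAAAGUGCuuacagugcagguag
rno-miR-20a-5p: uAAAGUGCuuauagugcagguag
rno-miR-20b-5p: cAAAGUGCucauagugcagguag
rno-miR-93-5p: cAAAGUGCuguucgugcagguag
rno-miR-106b-5p: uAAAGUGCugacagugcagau
Sites that match this seed in the members' transcripts were not searched.

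The mRNA libraries held 3379456 to 21056240 counts and the RISC libraries 4185123 to 13420403. The control RISC libraries stood apart in coverage. They held counts for 5589 to 7424 genes, against 9040 to 10753 genes in the miR-17-5p RISC libraries, and a gene was often at 0 in 1 control RISC library and well counted in another. Of the 32 members, 29 to 32 had a count in a miR-17-5p mRNA library, 28 to 31 in a control mRNA library, 22 to 27 in a miR-17-5p RISC library and 15 to 21 in a control RISC library. This low coverage was present in all 3 control RISC libraries, so coverage and treatment cannot be told apart in any comparison that uses them. Members took 0.130% to 0.257% of the counts in miR-17-5p mRNA libraries, against 0.0886% to 0.131% in control mRNA libraries, and 0.367% to 0.453% in miR-17-5p RISC libraries, against 0.244% to 0.268% in control RISC libraries.

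In mRNA, 8 of the 28 members that passed the filter on low counts rose in miR-17-5p cells and 0 fell (edgeR quasi-likelihood test, Benjamini-Hochberg adjusted p under 0.05), while 3.87% of all 11077 genes tested were called in either direction (3.11% higher and 0.767% lower). They were the collagen receptors Itga11 and Itga1, the receptors Itga5 and Itga8 for proteins with an RGD motif, Itga4, Itgb5, the laminin chain Lamc1 and the nidogen Nid2. The median log2 fold change was 0.54 over the members tested and 0.01 over all genes tested. Levels below are counts scaled to library size (CPM), which carry no correction for gene length and so compare libraries, not genes.

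Among collagen receptors, Itga11 encodes the chain that binds fibrillar collagens and is typical of fibroblasts. Its level was 190, 254, 508, 293 and 333 CPM in the miR-17-5p mRNA libraries, against 68.3, 68.3 and 29.6 CPM in the control mRNA libraries. The lowest miR-17-5p library lay well above the highest control library, and the log2 fold change was 2.48 ± 0.37 (SE, edgeR adjusted p = 0.0066). Itga1, whose product prefers the collagen IV of basement membranes, had 34.2, 23.7, 52.8, 28.7 and 34.7 CPM in miR-17-5p cells, against 12.6, 8.57 and 14.4 CPM in control cells. These groups did not overlap either, with a log2 fold change of 1.57 ± 0.28 (edgeR adjusted p = 0.0085). The third collagen receptor, Itga10, was under the filter, with at most 5 counts in a miR-17-5p mRNA library and 0 in every control mRNA library.

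Itga8 encodes the receptor chain for nephronectin and fibronectin, known from smooth muscle and, in mice, from kidney development. It had 32.4, 82.3, 90.2, 43.0 and 61.4 CPM in miR-17-5p mRNA libraries, against 16.1, 14.3 and 6.24 CPM in control mRNA libraries. Every miR-17-5p library was above every control library, and Itga8 rose by 2.27 ± 0.38 on the log2 scale (edgeR adjusted p = 0.00881). Itga5, the fibronectin receptor chain, had 159, 327, 210, 179 and 190 CPM in miR-17-5p cells, against 129, 77.4 and 84.2 CPM in control cells. Library 2 of the miR-17-5p group was the highest, the groups did not overlap, and the log2 fold change was 1.13 ± 0.24 (edgeR adjusted p = 0.0243).

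The start regions of the 2 alpha chains with the largest changes, Itga11 and Itga8, and of the laminin chain that rose, Lamc1, are shown for context, each as the 250 bases before the annotated start in RefSeq (GRCr8), read 5′ to 3′ on the strand of the gene. Capitals mark matches on either strand to the AP-1 motif TGANTCA, the TEAD motif GGAATG, the serum response factor CArG box or the GC box GGGCGG. The Itga8 region is chr17:80410634-80410883 on the minus strand, the Itga11 region chr8:72041182-72041431 on the plus strand and the Lamc1 region chr13:68051987-68052236 on the minus strand.
Itga8: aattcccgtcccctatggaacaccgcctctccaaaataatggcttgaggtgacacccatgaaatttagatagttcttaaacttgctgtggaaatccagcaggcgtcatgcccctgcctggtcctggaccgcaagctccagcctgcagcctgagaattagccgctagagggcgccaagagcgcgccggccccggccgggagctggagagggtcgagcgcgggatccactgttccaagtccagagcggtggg
Itga11: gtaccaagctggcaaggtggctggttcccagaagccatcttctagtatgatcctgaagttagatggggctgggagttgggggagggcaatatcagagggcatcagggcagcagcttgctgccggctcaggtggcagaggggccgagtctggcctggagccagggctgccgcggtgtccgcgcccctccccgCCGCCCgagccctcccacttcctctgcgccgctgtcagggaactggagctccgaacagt
Lamc1: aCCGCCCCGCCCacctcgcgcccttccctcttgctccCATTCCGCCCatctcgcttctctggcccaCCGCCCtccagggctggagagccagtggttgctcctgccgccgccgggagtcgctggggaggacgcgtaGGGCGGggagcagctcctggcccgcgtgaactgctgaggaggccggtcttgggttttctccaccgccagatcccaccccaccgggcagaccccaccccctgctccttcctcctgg
Itga8 held 0 of these motifs, Itga11 held 1 GC box, and Lamc1 held 5 GC boxes and 1 TEAD motif, which overlaps a GC box. Of 27457 RefSeq start regions of this length, 6.36% held an AP-1 motif, 11.8% a TEAD motif, 1.5% a CArG box and 32.4% a GC box, and among genes tested in mRNA the GC box share was 60%. Of the 22 members with an entry, 0 held an AP-1 motif, 5 a TEAD motif, 1 a CArG box and 9 a GC box. A match is a description of letters and was tied to no binding measurement.

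Laminin receptors did not pass the test. Itga6, the laminin receptor chain found on beta cells and epithelia, had 24.3, 13.1, 34.4, 31.2 and 27.1 CPM in miR-17-5p mRNA libraries, against 24.5, 23.0 and 32.5 CPM in control mRNA libraries. The groups overlapped, with a log2 fold change of -0.03 ± 0.27 (edgeR adjusted p = 0.972) whose sign turned under other settings. Itga7, the laminin receptor chain of muscle, had a log2 fold change of -0.12 ± 0.50.

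Among alpha chains known mainly from blood cells, 1 of 4 tested rose. Itga4, whose product binds fibronectin and the endothelial protein Vcam1, had 18.0, 22.4, 34.8, 31.2 and 31.4 CPM in miR-17-5p mRNA libraries, against 5.26, 8.57 and 9.05 CPM in control mRNA libraries. The groups did not overlap, and the log2 fold change was 1.88 ± 0.29 (edgeR adjusted p = 0.00419). Itgal, the chain of the lymphocyte receptor for Icam1, had 10.7, 12.5, 21.1, 15.2 and 23.2 CPM in miR-17-5p cells, against 11.8, 27.8 and 15.9 CPM in control cells. Itgam, its macrophage and neutrophil counterpart, had 0.915, 5.37, 10.9, 6.91 and 10.6 CPM in miR-17-5p cells, against 3.57, 9.81 and 3.12 CPM in control cells. Itgae, the chain that binds E-cadherin, had 5.55, 1.05, 6.43, 2.70 and 2.71 CPM in miR-17-5p cells, against 2.16, 3.10 and 3.43 CPM in control cells. All 3 overlapped between groups and did not pass the test. Itgad was under the filter with at most 7 counts in an mRNA library.

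Of the 8 beta chains, Itgb5 alone passed the test in mRNA. Itgb5, the vitronectin receptor chain that pairs with the alpha-V chain, had 82.8, 68.5, 82.7, 72.5 and 70.1 CPM in miR-17-5p mRNA libraries, against 53.3, 51.9 and 45.5 CPM in control mRNA libraries. The change was small and tight, 0.58 ± 0.14 on the log2 scale with no overlap (edgeR adjusted p = 0.0334). Itgb1, the partner of Itga1, Itga5, Itga8 and Itga11, had 355, 462, 617, 425 and 479 CPM in miR-17-5p cells, against 362, 328 and 295 CPM in control cells. Library 1 of the miR-17-5p group lay within the control range, and the log2 fold change of 0.51 ± 0.17 did not pass (edgeR adjusted p = 0.116).

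The platelet and vascular chain Itgb3 had 4.52, 14.1, 16.9, 11.97 and 10.6 CPM in miR-17-5p mRNA libraries, against 9.20, 4.59 and 2.50 CPM in control mRNA libraries. The leukocyte chain Itgb2 had 12.8, 25.6, 23.6, 18.9 and 23.5 CPM in miR-17-5p cells, against 4.79, 25.2 and 5.30 CPM in control cells. In both genes the ranges overlapped through 1 library, miR-17-5p library 1 for Itgb3 and control library 2 for Itgb2. Itgb4, the hemidesmosome chain that pairs with Itga6, had 3.71, 9.10, 9.42, 8.94 and 8.14 CPM in miR-17-5p cells, against 10.3, 13.0 and 6.55 CPM in control cells. Itgb6, an epithelial chain that helps release active transforming growth factor beta, had 7.59, 9.80, 7.93, 19.1 and 13.3 CPM in miR-17-5p cells, against 11.9, 16.3 and 7.18 CPM in control cells. Neither passed the test.

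Itgb8, which also acts on latent transforming growth factor beta, was counted at 14 to 29 counts in a miR-17-5p mRNA library, against 3 to 11 counts in a control mRNA library. These counts are not scaled for depth. Once scaled, Itgb8 had 0.754 to 3.38 CPM in miR-17-5p mRNA libraries, against 0.869 to 1.03 CPM in control mRNA libraries. In human cells its counterpart has been reported as a target of miR-93, which has the seed printed above, and it is named here for that reason, after its values were seen. Its log2 fold change was 1.36 ± 0.77 (edgeR adjusted p = 0.376), with overlapping groups, since miR-17-5p library 1 lay below every control library in CPM. Itgb7, the partner chain of Itga4 and Itgae on lymphocytes, had at most 38 counts in an mRNA library and a log2 fold change of 0.39 ± 0.91.

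**Figure D1:**
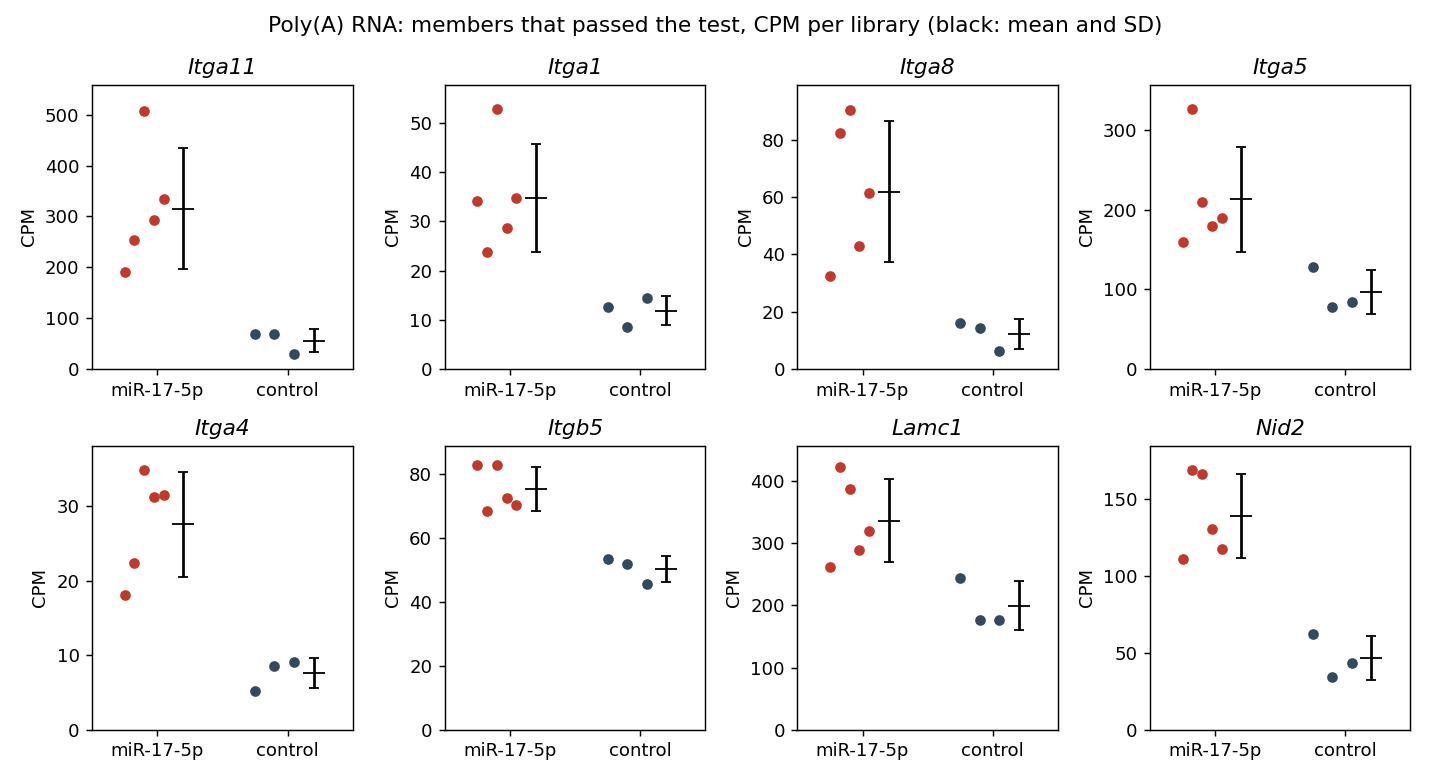
Level in mRNA libraries, in CPM on a linear axis from 0, of the 8 members that rose; each point is a library, and the black bar is the mean with its SD (5 miR-17-5p and 3 control libraries). In all 8 panels every miR-17-5p point lies above every control point, with the widest gap for Itga11 and the smallest fold for Itgb5. The 8 were picked by the test on these same values, so this separation adds no support. Its share over all genes was not counted.

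Of the 7 laminin chains, 1 rose and 0 fell in mRNA. Lamc1, the gamma chain of most laminins, had 262, 422, 387, 289 and 320 CPM in miR-17-5p mRNA libraries, against 245, 177 and 177 CPM in control mRNA libraries. The groups did not overlap, by a narrow margin, and the log2 fold change was 0.75 ± 0.18 (edgeR adjusted p = 0.0351). Lamb2, a beta chain of vascular and synaptic basement membranes, had 47.5, 126, 110, 82.1 and 86.6 CPM in miR-17-5p cells, against 63.0, 41.1 and 32.1 CPM in control cells. Library 1 fell inside the control range and the log2 fold change of 0.97 ± 0.30 did not pass (edgeR adjusted p = 0.100). Lama5, the alpha chain of mature islet vessels, had 56.7, 99.9, 100.3, 81.8 and 80.1 CPM in miR-17-5p cells, against 76.6, 65.1 and 58.3 CPM in control cells. It did not pass either, at 0.32 ± 0.18.

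Lamb3 encodes a beta chain found in epithelial laminin. It had 10.9, 22.5, 18.8, 12.7 and 13.0 CPM in miR-17-5p cells, against 19.3, 11.8 and 18.4 CPM in control cells. The groups overlapped, with a log2 fold change of -0.08 ± 0.29. Lama1, an embryonic alpha chain, averaged 3.78 ± 1.71 CPM in miR-17-5p cells and 1.49 ± 0.48 CPM in control cells (SD, n = 5 and 3) and did not pass, and Lamc3 had at most 19 counts in an mRNA library.

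Nid2, the nidogen that links laminin to collagen IV, had 111, 169, 166, 131 and 118 CPM in miR-17-5p mRNA libraries, against 62.1, 34.5 and 43.4 CPM in control mRNA libraries. The groups were far apart, and with 1.57 ± 0.21 on the log2 scale Nid2 had the smallest p of all members in this comparison (edgeR adjusted p = 0.00169). Of the 4 genes that encode no subunit, Itgb1bp1 and Itgbl1 were tested in mRNA and neither passed. Itgb1bp1, whose protein binds the tail of the Itgb1 chain and holds it inactive, had 20.3, 27.8, 21.1, 19.6 and 18.8 CPM in miR-17-5p cells, against 15.1, 18.9 and 15.6 CPM in control cells, with overlap only through miR-17-5p library 6. Itgbl1, a secreted protein that resembles a beta chain, had at most 57 counts, the centromere protein Itgb3bp at most 25 and the muscle chaperone Itgb1bp2 at most 28 in an mRNA library.

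In the mRNA comparison, Itga11, Itga4 and Nid2 were called whichever library was left out. The count of members called was 4 without control library 3 (Itga5, Itga8, Itgb5 and Lamc1 lost), 5 without control library 2 (Itga1, Itga5, Itgb5 and Lamc1 lost and Itgb2 gained), 5 without miR-17-5p library 4 (Itga5, Itgb5 and Lamc1 lost) and 10 without miR-17-5p library 1 (Itgb1 and Lamb2 gained). Itgb5 was also lost without control library 1 or miR-17-5p library 5 or 6, and Lamc1 without miR-17-5p library 6. Over all genes, 429 were called in the full fit, 85 without control library 3 and 816 without miR-17-5p library 1.

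The make-up of the alpha chain counts differed between the groups. Itga11 supplied 43.6% ± 7.01 of the counts on the 12 alpha genes in miR-17-5p mRNA libraries and 22.1% ± 6.77 in control mRNA libraries (SD, n = 5 and 3), with ranges of 33.7% to 52.1% and 14.5% to 27.6%. Itga6 supplied 3.80% ± 1.34 in miR-17-5p cells and 11.3% ± 4.00 in control cells, again without overlap, while its own level averaged 26.0 ± 8.20 CPM in miR-17-5p cells and 26.6 ± 5.09 CPM in control cells. Itga5 supplied 30.5% ± 8.36 in miR-17-5p cells and 39.4% ± 7.39 in control cells, with overlap. A smaller share without overlap was not particular to Itga6. Itga7 supplied 0.361% to 1.46% in miR-17-5p cells, against 1.835% to 3.13% in control cells. Itgal supplied 1.66% to 3.22%, against 4.20% to 11.2% in control cells. The share of Itga8 was larger, at 6.75% to 10.9%, against 3.06% to 5.76% in control cells. These shares use raw counts and do not depend on library scaling, but they favour long transcripts and add up to a fixed total in each library.

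Within the laminins, Lamc1 took 61.6% ± 3.22 of the counts in miR-17-5p mRNA libraries and 56.0% ± 1.90 in control mRNA libraries. Lamb3 took 2.80% ± 0.26 in miR-17-5p cells, against 4.68% ± 1.22 in control cells. The shares of Lamc1 and Lamb3 did not overlap between the groups. Itgb1 took 77.7% ± 2.12 of the beta chain counts in miR-17-5p cells and 78.4% ± 3.64 in control cells, with overlap.

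**Figure D2:**
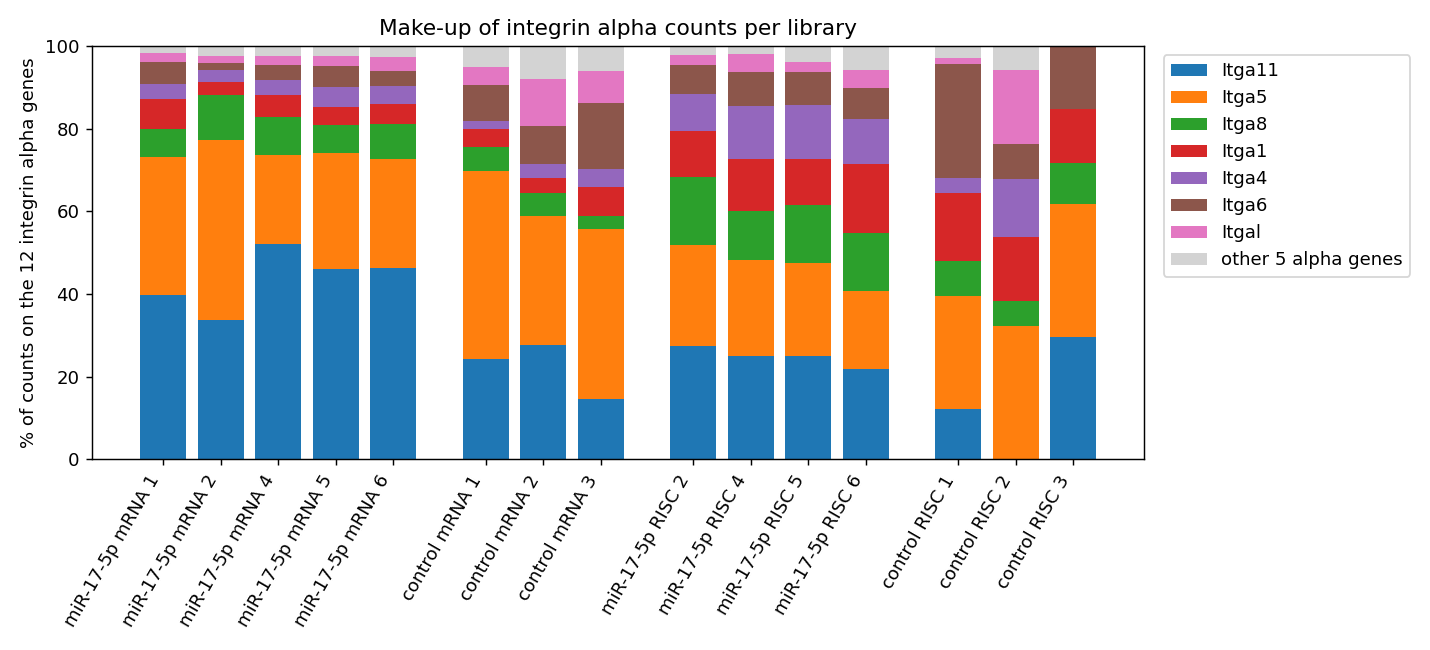
Share of each integrin alpha gene, in % of the counts on the 12 alpha genes, for each of the 15 libraries (1 bar per library, grouped by treatment and RNA type). In mRNA the Itga11 part is 33.7% to 52.1% in miR-17-5p libraries, against 14.5% to 27.6% in control libraries, and in control RISC library 2 it is close to 0.

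In RISC, 1 of the 23 members tested rose in miR-17-5p cells and 0 fell, against 0.371% of 9443 genes called in either direction (0.339% higher and 0.0318% lower). That member was Itga8, with 240, 182, 169 and 209 CPM in the miR-17-5p RISC libraries, against 29.2, 36.6 and 43.3 CPM in the control RISC libraries. Its groups were widely separated, with a log2 fold change of 2.46 ± 0.31 (edgeR adjusted p = 0.0191), and it was called in both mRNA and RISC. The call was lost without miR-17-5p library 2, 5 or 6 (edgeR adjusted p = 0.0995, 0.0919 and 0.0804) and with limma-voom (adjusted p = 0.298). With library 2, 5 or 6 left out no gene at all was called in RISC, so that loss is not particular to Itga8. The log2 fold change of Itga8 stayed between 2.27 and 2.57 in every library left out. The median log2 fold change was 1.25 over the members tested and 0.27 over all genes tested.

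The other alpha chains that rose in mRNA had positive, uncalled values in RISC. Itga1 had 160, 198, 136 and 251 CPM in miR-17-5p RISC libraries, against 55.9, 94.9 and 57.0 CPM in control RISC libraries, and Itga5 had 354, 360, 272 and 286 CPM in miR-17-5p RISC libraries, against 92.7, 196 and 140 CPM in control RISC libraries. Neither overlapped, at log2 fold changes of 1.43 ± 0.35 and 1.15 ± 0.29 (edgeR adjusted p = 0.0725 for each). Itga11 had 396, 391, 301 and 328 CPM in miR-17-5p RISC libraries, against 41.7, 0.770 and 129 CPM in control RISC libraries, and Itga4 had 128, 200, 156 and 167 CPM, against 12.4, 85.7 and 0 CPM in control RISC libraries. All miR-17-5p values were higher, but the control libraries differed widely from each other, and the log2 fold changes of 2.64 ± 1.10 and 2.31 ± 1.32 did not pass (edgeR adjusted p = 0.208 and 0.454).

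Itga6 had 102, 128, 98.5 and 112 CPM in miR-17-5p RISC libraries, against 94.2, 52.1 and 65.8 CPM in control RISC libraries. Itgal had 35.1, 65.5, 28.6 and 65.7 CPM in miR-17-5p RISC libraries, against 5.01, 109 and 0 CPM in control RISC libraries, and Itgam had 22.3, 24.5, 42.5 and 67.3 CPM, against 9.57, 10.3 and 0 CPM in control RISC libraries. Itga6 and Itgam did not overlap and Itgal did, through control library 2, and none of the 3 passed.

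Of the beta chains in RISC, Itgb1 had 1358, 1603, 1731 and 1907 CPM in miR-17-5p libraries, against 971, 1295 and 889 CPM in control libraries. Its groups did not overlap, with a log2 fold change of 0.65 ± 0.21 (edgeR adjusted p = 0.107). Itgb5 had 76.5, 70.8, 49.0 and 78.0 CPM in miR-17-5p RISC libraries, against 20.8, 0 and 31.8 CPM in control RISC libraries, and Itgb3 had 47.3, 55.3, 31.1 and 40.3 CPM, against 23.4, 0.257 and 0 CPM in control RISC libraries. Itgb2 had 47.6, 19.0, 58.5 and 144 CPM in miR-17-5p RISC libraries, against 0, 84.5 and 0 CPM in control RISC libraries, and Itgb6 had 49.5, 34.5, 57.9 and 33.8 CPM, against 28.0, 54.6 and 39.9 CPM in control RISC libraries. Itgb5 and Itgb3 did not overlap, Itgb2 and Itgb6 did, and none passed the test.

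Among laminin chains in RISC, Lamc1 had 759, 944, 822 and 716 CPM in miR-17-5p libraries, against 647, 571 and 593 CPM in control libraries. The gap between the groups was small, and the log2 fold change of 0.42 ± 0.18 did not pass (edgeR adjusted p = 0.221). Lama5 had 72.3, 73.6, 65.3 and 73.0 CPM in miR-17-5p RISC libraries, against 30.1, 32.4 and 0.188 CPM in control RISC libraries. Lamb2 had 61.4, 49.1, 37.5 and 88.7 CPM, against 0, 40.5 and 27.1 CPM in control RISC libraries. Lama5 did not overlap between the groups and Lamb2 did, and neither passed.

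Nid2 had 192, 97.9, 125 and 138 CPM in miR-17-5p RISC libraries, against 8.35, 99.1 and 0.188 CPM in control RISC libraries, and Itgb1bp1 had 5.38, 0, 6.06 and 4.17 CPM, against 15.1, 0 and 0 CPM in control RISC libraries. Both overlapped. Itgb4 had 3.04, 8.26, 5.16 and 0 CPM in miR-17-5p RISC libraries and 1 count in all in the control RISC libraries, a ratio of 118 with a 95% counting interval of 21.2 to 4660, and did not pass (edgeR adjusted p = 0.158). This interval, like those further below, covers the counting error of the group with few counts alone. It leaves out the spread between libraries and is therefore too narrow. Itga7, Itgb8 and Itgbl1 were tested as well and did not pass, with standard errors of 2.24, 2.26 and 2.56 on the log2 scale. The 9 members not tested in RISC were Itga10, Itgad, Itgae, Itgb7, Lama1, Lamb3, Lamc3, Itgb1bp2 and Itgb3bp, and of these Itga10, Itgb1bp2 and Itgb3bp were at 0 in all RISC libraries. Without control RISC library 2, 8 members were called in RISC: Itga1, Itga11, Itga5, Itga7, Itga8, Itgb1, Itgb2 and Nid2. In that setting the calls over all genes numbered 1225, against 35 in the full fit, so the larger count is not particular to members.

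**Figure D3:**
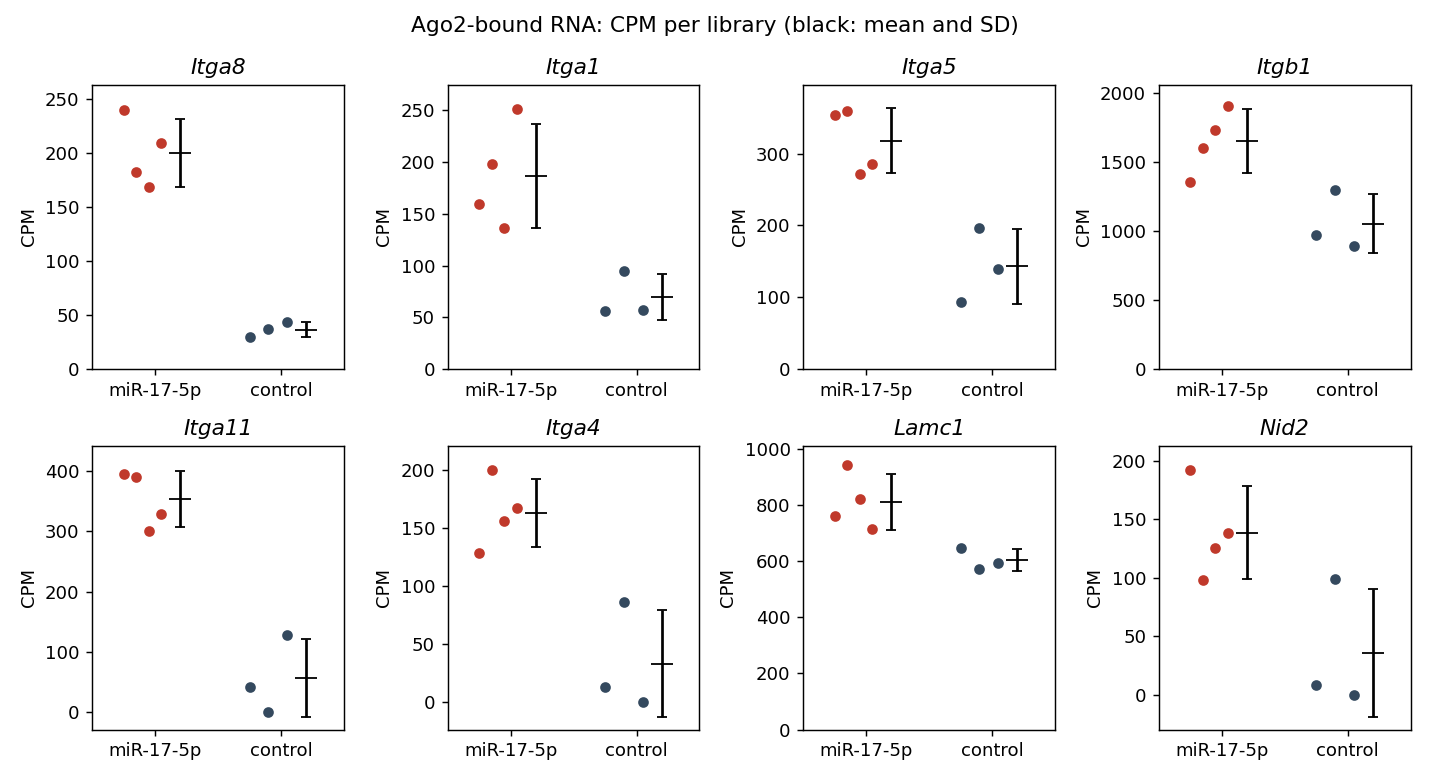
Level in RISC libraries, in CPM on a linear axis, of 8 members; each point is a library, and the black bar is the mean with its SD (4 miR-17-5p and 3 control libraries). Itga8 is the member that passed the test; in Itga11, Itga4 and Nid2 the 3 control points are spread widely, from near 0 up to 129 CPM for Itga11.

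The change in RISC was set against the change in mRNA in a model of all 15 libraries. Of 30 members tested, 2 had a larger change in RISC, Lamb3 and Itgb4, and 0 a smaller one, against 13.4% of 11418 genes called (13% higher and 0.394% lower). The difference on the log2 scale was 8.77 ± 2.23 for Lamb3 (edgeR adjusted p = 0.0203) and 6.56 ± 1.81 for Itgb4 (edgeR adjusted p = 0.0255). Lamb3 had 240, 0, 55 and 8 counts in the miR-17-5p RISC libraries and 0 in each control RISC library, and Itgb4 1 count in those 3 libraries, so the fitted sizes depend on the prior count and are no measure of size. Both calls were lost with limma-voom and without the libraries numbered control 1 or miR-17-5p 5, and that of Itgb4 also without control 3 or miR-17-5p 2 or 4 (edgeR adjusted p = 0.0506 to 0.0689). Itga8 differed by 0.12 ± 0.52, Itga5 by 0.00 ± 0.40, Itgb1 by 0.12 ± 0.26 and Lamc1 by -0.34 ± 0.26, none of which passed.

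**Figure D4:**
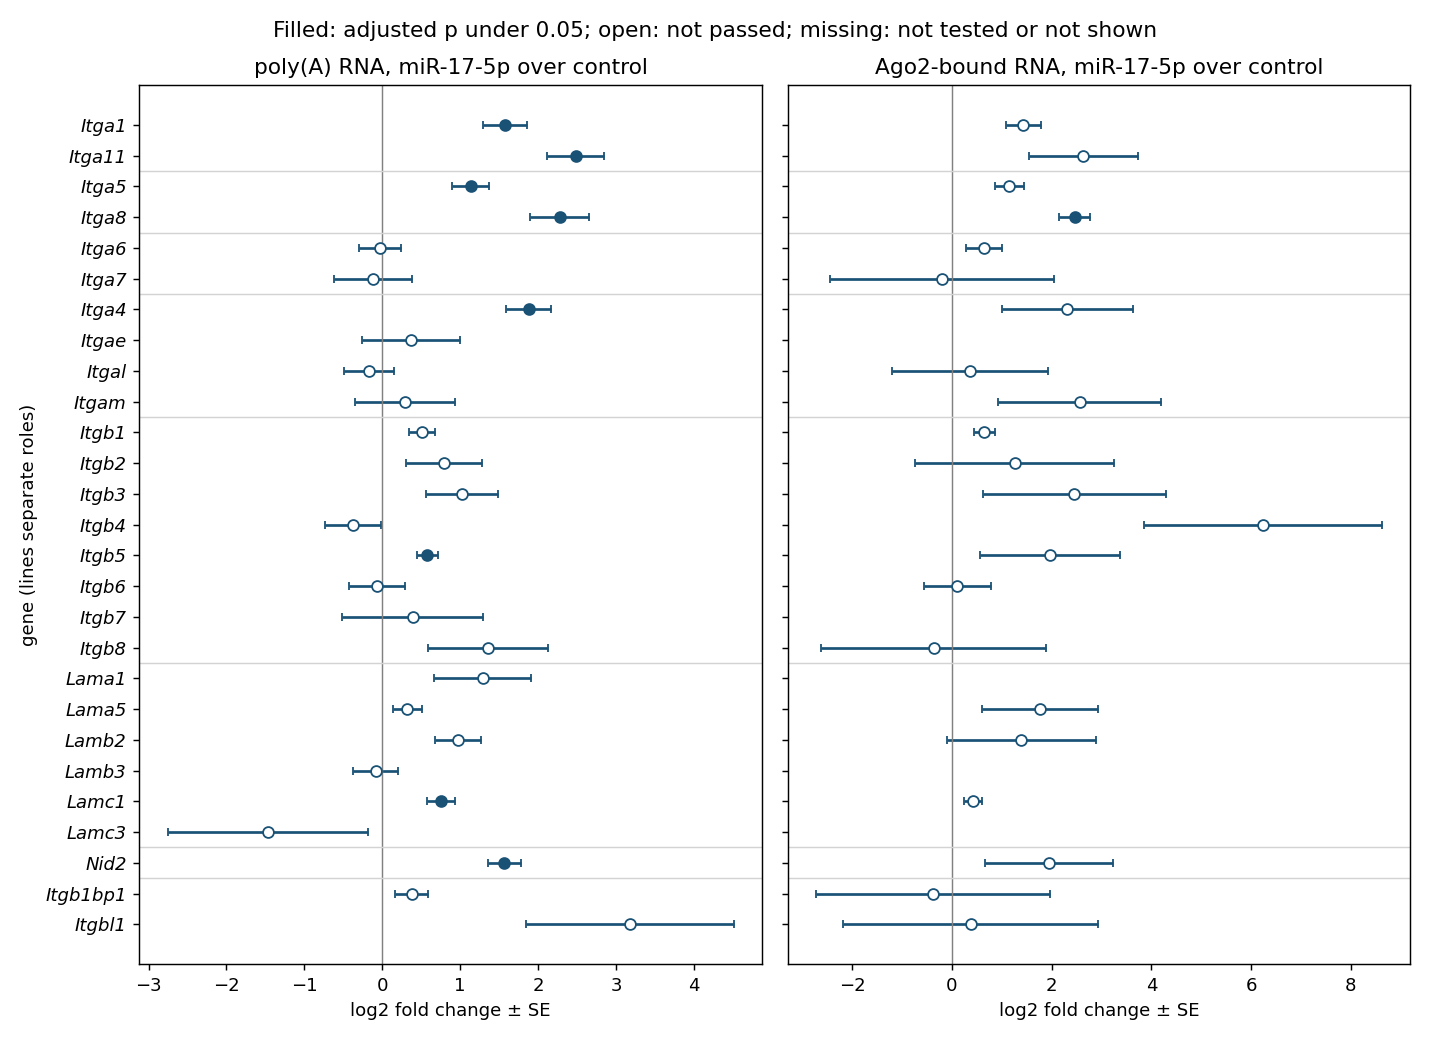
Log2 fold change of miR-17-5p over control with its SE for the members shown, in mRNA on the left and in RISC on the right, ordered by role; filled points passed the test and open points did not. Of the filled points, 8 are in mRNA and 1, Itga8, is in RISC, where the error bars are far wider.

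RISC was then set against mRNA within each treatment, which asks how far a transcript is recovered with Ago2 relative to its poly(A) level. Both library types differ in more than Ago2 binding, since the labels state oligo(dT) selection for mRNA libraries alone. In miR-17-5p cells 11 of 27 members tested were higher in RISC and 4 lower, while 43.5% of 10871 genes were called, 21.7% higher and 21.8% lower. In control cells 3 of 23 members were higher and 3 lower, while 28.2% of 10170 genes were called, 5.96% higher and 22.3% lower.

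Itgb1, Itga1 and Lamc1 were higher in RISC in both treatments. Itgb1 averaged 1428 ± 194 CPM in RISC and 498 ± 102 CPM in mRNA of miR-17-5p cells (SD, n = 4 and 5), a log2 fold change of 1.52 ± 0.17 (edgeR adjusted p = 3.54e-05), and 941 ± 183 CPM in RISC and 399 ± 43.2 CPM in mRNA of control cells (SD, n = 3 each), a log2 fold change of 1.24 ± 0.19 (edgeR adjusted p = 0.0094). Itga1 averaged 160 ± 36.7 CPM in RISC and 37.1 ± 11.8 CPM in mRNA of miR-17-5p cells, with a log2 fold change of 2.11 ± 0.24, and 61.9 ± 19.1 CPM in RISC and 14.4 ± 3.49 CPM in mRNA of control cells, with 2.11 ± 0.60. Lamc1 averaged 702 ± 88.3 CPM in RISC and 358 ± 70.6 CPM in mRNA of miR-17-5p cells, with 0.97 ± 0.17, and 541 ± 43.3 CPM in RISC and 243 ± 48.3 CPM in mRNA of control cells, with 1.16 ± 0.19. In each of these 6 pairs all RISC libraries lay above all mRNA libraries. These members were named because they were called, so this separation adds nothing to the test. Its share over all genes was not counted. The edgeR adjusted p values were 3.41e-05 and 0.000646 for Itga1 and Lamc1 in miR-17-5p cells, and 0.0485 and 0.0102 in control cells. In control cells the calls of Itga1 and Lamc1 were lost whichever replicate number was left out (edgeR adjusted p = 0.0649 to 0.263 for Itga1 and 0.0598 to 0.0619 for Lamc1), and that of Itgb1 was lost without number 1 (edgeR adjusted p = 0.0619).

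In miR-17-5p cells Itga4, Itga6, Itga8, Itgb3, Itgb6, Itgal, Itgam and Itgb2 were also higher in RISC, with log2 fold changes of 2.26 ± 0.22, 1.78 ± 0.25, 1.40 ± 0.28, 1.61 ± 0.36, 1.65 ± 0.34, 1.24 ± 0.33, 2.20 ± 0.60 and 1.38 ± 0.46. Itga6, for example, averaged 95.2 ± 8.06 CPM in RISC and 27.7 ± 8.74 CPM in mRNA (edgeR adjusted p = 0.000152). The RISC libraries lay above the mRNA libraries in all of these but Itgb2, for which 1 RISC library was within the mRNA range. Here too the members were named because they were called, and the separation adds nothing to the test. The call of Itgb2 was lost without number 1, 2, 5 or 6 and that of Itgam without number 5 (edgeR adjusted p = 0.0584 to 0.177). Itga11 and Itga5, high in mRNA, were not shifted past the test in miR-17-5p cells, at -0.13 ± 0.24 and 0.28 ± 0.20.

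Lamb2 and Lama5 were lower in RISC of miR-17-5p cells. Lamb2 averaged 50.8 ± 17.3 CPM in RISC and 96.2 ± 31.5 CPM in mRNA (edgeR adjusted p = 0.0251), and Lama5 averaged 61.5 ± 1.56 CPM in RISC and 89.2 ± 18.9 CPM in mRNA (edgeR adjusted p = 0.0322), both with ranges that overlapped through mRNA library 1. Itgb1bp1 averaged 3.44 ± 2.45 CPM in RISC and 22.9 ± 3.78 CPM in mRNA, a log2 fold change of -2.73 ± 0.84 (edgeR adjusted p = 0.0198), without overlap. Itgae had 2 counts in all miR-17-5p RISC libraries together, and its mRNA level was higher by a ratio of 84.4 with a 95% counting interval of 23.4 to 697. The call of Lama5 was lost without number 2, 4, 5 or 6, that of Lamb2 without 2, 4 or 5 and that of Itgb1bp1 without 2, 5 or 6 (edgeR adjusted p = 0.0568 to 0.106).

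In control cells the members lower in RISC were Itgae, Lamb3 and Itgb4. Lamb3 had 0 counts in the 3 control RISC libraries, and against a floor of 3 counts per library its level was at least 59.0-fold lower than the mean of the control mRNA libraries, 20.1 ± 4.91 CPM. Itgae, also at 0, was at least 10.4-fold lower than its mRNA mean of 3.52 ± 0.79 CPM. Itgb4 had 1 count in RISC, and its mRNA level was higher by a ratio of 387 with a 95% counting interval of 69.5 to 15300. Intervals and floors cover counting error only. Without the libraries of control number 1, 0 members and 0 of all genes were called in control cells (edgeR adjusted p = 0.0619 for Itgae, Lamb3 and Itgb4). Without number 3 the call of Itgb4 was lost (edgeR adjusted p = 0.0756).

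**Figure D5:**
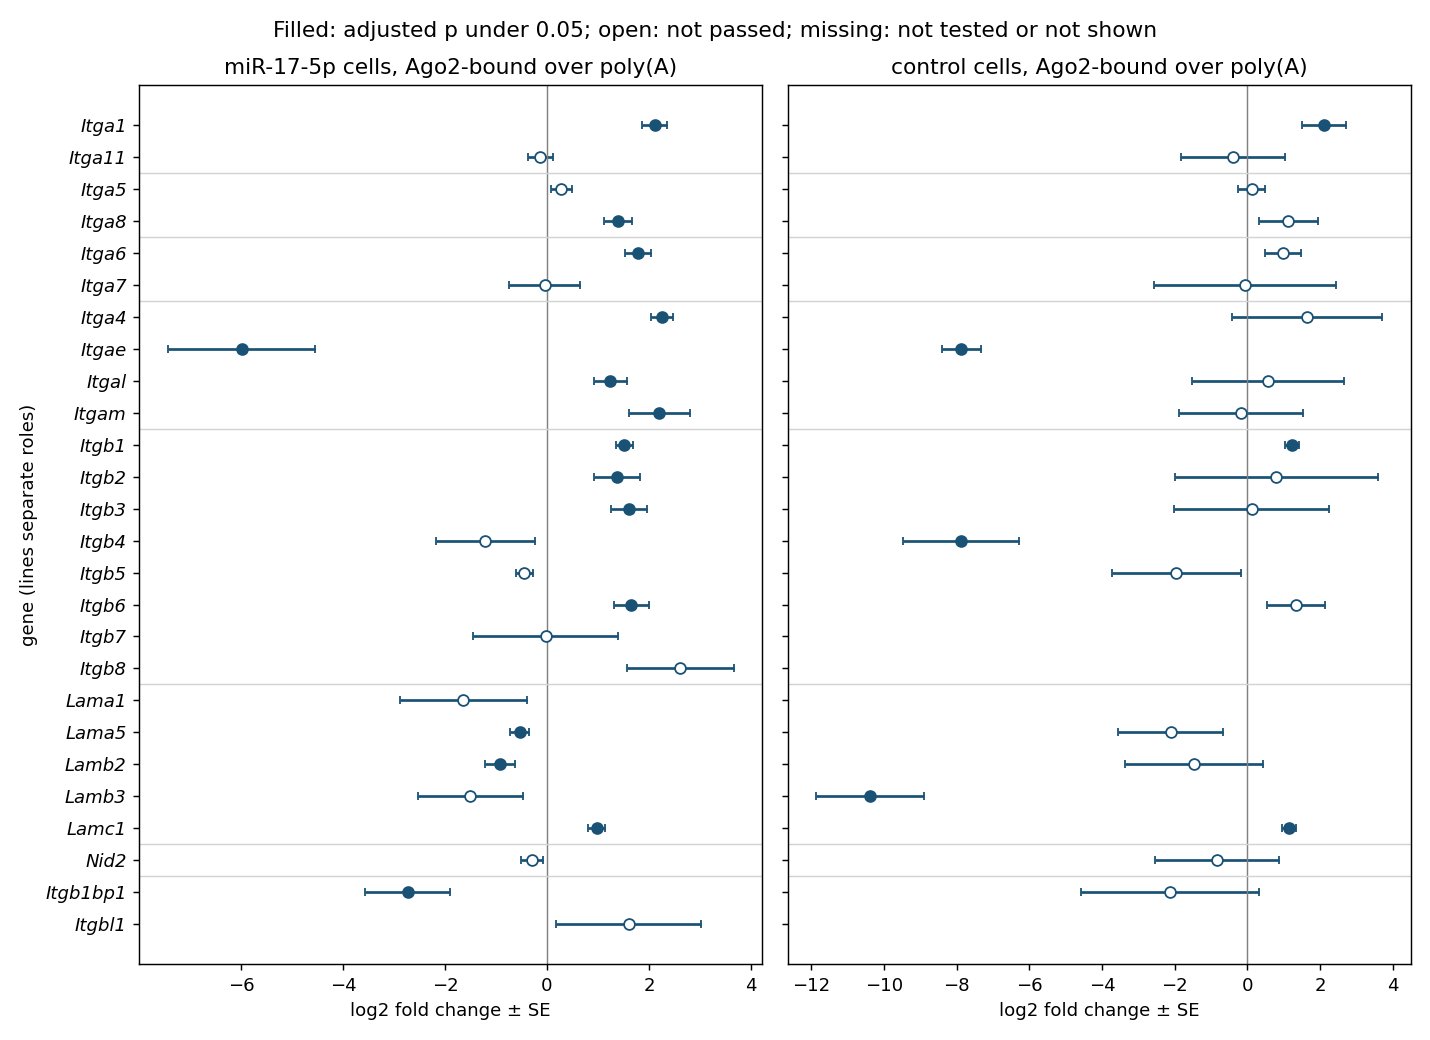
Log2 fold change of RISC over mRNA with its SE for the members shown, in miR-17-5p cells on the left and in control cells on the right; filled points passed the test and the panels have their own axes. Itgb1, Itga1 and Lamc1 are filled and right of 0 in both panels, and Itgae is filled and left of 0 in both.

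The genes around integrins and laminins were counted from lists of their ligands, anchors and signalling partners. These lists and the marker lists further below were chosen with earlier results of these data known, so their counts describe and test nothing. Over all genes tested, 3.11% were called higher and 0.767% lower in mRNA, and 0.339% higher and 0.0318% lower in RISC. Of integrin ligands other than laminin, 9 of 19 tested rose and 0 fell in mRNA, and 3 of 19 rose and 0 fell in RISC. Fn1, fibronectin, averaged 3666 CPM in miR-17-5p mRNA libraries and 1010 CPM in control mRNA libraries, with a log2 fold change of 1.86 ± 0.30 (edgeR adjusted p = 0.00635), and Fbln5, an elastic fibre protein that binds integrins, averaged 90.1 CPM in miR-17-5p cells and 19.3 CPM in control cells. Tnc, tenascin C, averaged 1912 CPM in miR-17-5p RISC libraries and 467 CPM in control RISC libraries (edgeR adjusted p = 0.0135). Of other basement membrane genes, 5 of 16 rose and 0 fell in mRNA and 2 of 16 rose in RISC. Col4a1, a collagen IV chain, averaged 2220 CPM in miR-17-5p mRNA libraries and 964 CPM in control mRNA libraries, and Col4a1 was called in RISC as well, at 1.48 ± 0.20 on the log2 scale.

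Of the adaptors and signalling proteins at integrin tails, 13 of 35 rose and 0 fell in mRNA, and 3 of 35 rose in RISC. Vcl, vinculin, averaged 309 CPM in miR-17-5p mRNA libraries and 147 CPM in control mRNA libraries, at 1.07 ± 0.13 on the log2 scale (edgeR adjusted p = 0.00125), and 725 CPM in miR-17-5p RISC libraries, against 274 CPM in control RISC libraries. Flna, filamin A, also rose in both, by 1.45 ± 0.22 in mRNA and 2.34 ± 0.34 in RISC on the log2 scale. Among genes of latent transforming growth factor beta, which several alpha-V integrins release, 5 of 8 rose in mRNA and 0 of 8 in RISC (edgeR quasi-likelihood test). Those called in mRNA included Tgfb2 at 1.85 ± 0.19 and Ltbp2 at 1.89 ± 0.24. Log2 fold changes of this list leaned up, with 8 of 8 above 0 in mRNA (median 1.29) and 7 of 8 in RISC (median 1.71). Its RISC values rest on the control RISC libraries with their low coverage.

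Of laminin receptors outside the integrin family, 0 of 11 rose and 1 fell in each RNA type. That gene was Lgals3, galectin 3, which binds laminin sugars and averaged 480 CPM in miR-17-5p mRNA libraries and 1105 CPM in control mRNA libraries. Of laminin processing and assembly genes, 2 of 14 rose in mRNA, the glycosyltransferase Large and the protease Mmp2, and in RISC Mmp2 rose while Gyltl1b, a relative of Large, fell. These lists lean towards matrix genes that stellate cells and fibroblasts make, and Fn1, Col1a1 and Sparc also stand in the marker list of those cells.

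Of stellate cell and fibroblast markers, 9 of 16 rose and 0 fell in mRNA and 5 of 15 rose in RISC. In mRNA the miR-17-5p libraries held a summed level between 18520 and 41180 CPM, against 10020 to 17310 CPM in the control libraries. In RISC the miR-17-5p libraries held between 27000 and 30130 CPM, against 4933 to 11150 CPM in the control libraries. Acta2, smooth muscle actin, averaged 2207 CPM in miR-17-5p mRNA libraries and 564 CPM in control mRNA libraries. Col1a2 was at 0 in every library. The part of these markers in the changes of Itga11, Itga1, Itga8, Itga5, Lamc1 and Nid2 was not tested.

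Of macrophage and leukocyte markers, 1 of 16 was called higher in mRNA, Cd163, and 1 of 12 in RISC, Lcp1. All leaned up, with 16 of 16 log2 fold changes above 0 in mRNA (median 0.91) and 12 of 12 in RISC (median 5.82). The RISC values rest on the control RISC libraries with their low coverage. In mRNA their summed level lay between 228 and 540 CPM in the miR-17-5p libraries, against 103 to 390 CPM in the control libraries, with overlap. In RISC it lay between 309 and 386 CPM in the miR-17-5p libraries, against 0.188 to 144 CPM in the control libraries. Their part in the values of Itga4, Itgam and Itgb2 was not tested. Of endothelial markers, 2 of 12 fell in mRNA, Cdh5 and Kdr, and 0 rose. Of beta cell markers, 0 of 10 were called higher or lower in either RNA type (edgeR quasi-likelihood test). Their log2 fold changes leaned down, with 0 of 10 above 0 in mRNA (median -0.33) and 2 of 10 in RISC (median -0.55). The summed level of beta cell markers was 258000 to 478100 CPM in miR-17-5p mRNA libraries, against 365500 to 442100 CPM in control mRNA libraries. Duct markers had 1 of 6 lower in mRNA (Epcam), markers of the other endocrine cells 2 of 10 lower (Ghrl and Pyy), red blood cell markers 3 of 3 lower (Hba1, Hba2 and Hbb) and Schwann cell markers 1 of 9 higher (Cryab).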

How the data were processed

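The deposited tables held counts per gene, 1 table per library, as the authors made them. Per the submitters' processing notes, TopHat2 2.0.10 with Bowtie2 aligned the reads to rn5 and HTSeq counted them, and DESeq and edgeR are also named. For the other tools the version is not given in the sources used here. Per the labels' protocols, mRNA libraries were selected with oligo(dT), RISC libraries came from Ago2 immunoprecipitation, and all were single-end without strand. Reads of overlapping genes in the tables therefore cannot be told apart for Itga1 (Pelo), Itga7 (Mettl7b), Itgb3bp (Alg6, Efcab7) and Itgbl1 (Fgf14), and the rare Itgad reads may be shared with a near copy. Of 17055 symbols, 14175 matched RefSeq (GRCr8, used for names and sequences), among them 32 of 32 members. Summary lines stayed out of library sizes: reads placed more than once made up 15.0% to 31.2% of a library and ambiguous reads 0.151% to 0.454%. At the depths here 3 counts are 0.142 to 0.888 CPM. Unused columns with values per sample numbered 0.

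Groups came from titles. The test of the counts was edgeR 4.0.16 in R 4.3.3 (TMM factors, filterByExpr, robust quasi-likelihood F-tests, two-sided, Benjamini-Hochberg adjusted over all genes tested, called under 0.05), separately for each comparison; the fit of all 15 libraries assumes 1 spread per gene in mRNA and RISC. CPM use the TMM factors of their comparison, so a library's value differs slightly between comparisons. The treatment and RNA type comparisons share libraries, and their values are given side by side. The coefficient of variation that edgeR estimated across all genes was 0.305 in mRNA and 1.23 in RISC. The scripts were tested on simulated data. Values in every library are given for members called in at least 1 comparison and the 12 with the most mRNA reads, except 1 member that is not reported here, and up to 4 called genes per list are named. Members and lists were chosen with earlier results of these data known. Alternatives were DESeq2 size factors, no filter, DESeq2 1.42.0, limma-voom (limma 3.58.1) with quality weights, a replicate block and each replicate left out.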

Additional observations from a re-analysis of the deposited data

Results flagged for a closer look

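Of 42 groups of member values looked at for a library far from the others, 3 held one, and chance gives about 1 in 20. All 42 were miR-17-5p groups, since control groups, with 3 libraries each, were too small for the rule and were not looked at. Itgb1bp1 stood at 27.8 CPM in miR-17-5p mRNA library 2, while the other miR-17-5p mRNA libraries had 18.8 to 21.1 CPM. Itgb4 stood at 3.71 CPM in miR-17-5p mRNA library 1, while the others had 8.14 to 9.42 CPM. Lama5 stood at 65.3 CPM in miR-17-5p RISC library 5, while the others had 72.3 to 73.6 CPM, a small distance beside the control RISC range.

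The treatment change differed between RISC and mRNA by 6.56 on the log2 scale for Itgb4 and by 8.77 for Lamb3 (RISC minus mRNA, edgeR test of the difference). Both rest on control RISC libraries with 1 count in all for Itgb4 and 0 for Lamb3.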

How the results depend on the processing

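Members called in mRNA numbered 4 to 10 over the libraries left out and all genes called 85 to 816, against 8 and 429. All genes called were 887 with DESeq2 and 1001 with limma-voom. In RISC 4 members (Itga1, Itga5, Itga8 and Itgb1) and 1305 genes were called with DESeq2, 0 members and 20 genes with limma-voom, and 0 to 8 members and 0 to 1225 genes over the libraries left out, against 1 and 35. For the difference, limma-voom called 0 members and 0 genes, and libraries left out gave 0 to 5 members and 1155 to 2452 genes, against 2 and 1533. RISC against mRNA in control cells gave 0 to 6 members and 0 to 3114 genes over the libraries left out, against 6 and 2870; in miR-17-5p cells the counts of members and genes stayed within 1.5 times under every alternative.

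Replicate numbers were not taken to pair the samples. Deviations of same-numbered miR-17-5p and control mRNA libraries correlated at -0.24 and -0.07 over 8837 genes, and those of RISC and mRNA libraries at -0.01 to 0.06. The same-numbered mRNA library correlated best for RISC libraries miR-17-5p 4 and control 2 and 3, but not for miR-17-5p 2, 5 and 6 or control 1. With the wide spread of RISC libraries, low values cannot exclude that same-numbered RISC and mRNA libraries share cells. The main tests treated libraries as independent. With a replicate block 0 members and 0 genes were called in mRNA, 0 members and 30 genes for the difference, and 1 member and 338 genes for RISC against mRNA in control cells. In mRNA only numbers 1 and 2 occur in both groups, so the blocked fit has almost no libraries left to test treatment on. Its 0 calls therefore cannot decide whether the mRNA calls depend on pairing. In the treatment comparison of RISC no block could be fitted, because the RISC groups share only number 2.

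The mRNA log2 fold change of Itga6 was 0.21 with limma-voom, against -0.03, and ran between -0.15 and 0.15 over the libraries left out. It was above 0 without control library 3, miR-17-5p library 1 or miR-17-5p library 2. The causes were not tested. Scaling with DESeq2 size factors moved the median of all genes by -0.13 for the difference, -0.12 in miR-17-5p cells and -0.18 in control cells (RISC against mRNA, log2). With limma-voom that median moved by 1.62 in RISC, 1.13 for the difference, -0.21 in miR-17-5p cells and -2.20 in control cells, where 7 of 23 members were then above 0. With the replicate block it moved by 1.07 for the difference, -0.22 in miR-17-5p cells and -1.69 in control cells. Higher genes made up 58.3% of mRNA calls with limma-voom and 69.7% with DESeq2. Depth was lowest in control mRNA library 3, where 3 counts were 0.888 CPM. Genes with a count numbered 9040 to 10753 in miR-17-5p RISC libraries, against 5589 to 7424 in control RISC libraries.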
